A study of Mus musculus with 32 samples.

Results

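Thyroid hormone action in the developing mouse kidney was followed through 7 genes: Slc16a10, which encodes a transporter, Dio1 and Dio3, which encode hormone-converting enzymes, Thra and Thrb, which encode the nuclear receptors, and Klf9 and Hr, which the receptors are known to regulate. The genes were found by their symbol in the array annotation. All 7 were present, out of 18999 genes with a value, and 15 probes carried one of these symbols. The arrays measured total kidney RNA from C57BL/6 mice, an inbred laboratory strain, at 10 stages: late fetal (embryonic day 19, E19) and postnatal P01, P03, P05, P07, P10, P14, P21, P28 and P35, where the number counts days. P03 and P35 had 4 arrays each and the other stages 3 each, 32 in all, with no other treatment or genotype named for these samples. Per the labels, kidney RNA carried the dye Cy5 and a universal mouse reference RNA, the same on every array, carried Cy3. Source names say normal kidney, whereas a protocol text speaks of ureteral obstruction, and the source names were followed.

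The thyroid gland mainly secretes thyroxine, a prohormone that enters cells through membrane transporters. Deiodinases are selenium-containing enzymes that either remove an outer-ring iodine, which gives the active hormone triiodothyronine, or an inner-ring iodine, which inactivates it. Triiodothyronine binds receptors that sit on DNA, mostly as heterodimers with retinoid X receptors, and exchanges corepressors for coactivators at target genes. The kidney, and in it mainly the proximal tubule, is known as a site of type 1 deiodinase activity.

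RefSeq promoter windows (build GRCm38.p6) were found for 5 of the 7 genes, with 2 start sites for Thrb, and are shown for the 4 genes that differed between stages, since all 4 rose over the span of the series. Each sequence holds the 250 bases before the start, read 5′ to 3′ on the strand of the gene. Capitals mark, on either strand, AGGTCA, the core site that thyroid hormone receptors are known to bind, GGGCGG, a GC box, and CACCC, the core of the GT box; Krüppel-like factors such as Klf9 are known to bind GC and GT boxes.
Slc16a10, chr10:40142255-40142504, minus strand: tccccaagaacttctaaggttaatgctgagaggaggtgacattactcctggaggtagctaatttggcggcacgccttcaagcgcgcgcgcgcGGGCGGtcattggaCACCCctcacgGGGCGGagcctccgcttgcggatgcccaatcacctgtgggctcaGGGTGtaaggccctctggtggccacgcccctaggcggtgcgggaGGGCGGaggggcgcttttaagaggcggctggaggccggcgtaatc
Dio1, chr4:107307169-107307418, minus strand: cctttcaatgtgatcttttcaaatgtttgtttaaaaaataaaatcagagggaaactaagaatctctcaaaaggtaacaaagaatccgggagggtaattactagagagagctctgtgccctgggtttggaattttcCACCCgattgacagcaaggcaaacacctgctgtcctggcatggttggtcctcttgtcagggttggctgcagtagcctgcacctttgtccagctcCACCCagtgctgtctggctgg
Thrb, first start, chr14:17660710-17660959, plus strand: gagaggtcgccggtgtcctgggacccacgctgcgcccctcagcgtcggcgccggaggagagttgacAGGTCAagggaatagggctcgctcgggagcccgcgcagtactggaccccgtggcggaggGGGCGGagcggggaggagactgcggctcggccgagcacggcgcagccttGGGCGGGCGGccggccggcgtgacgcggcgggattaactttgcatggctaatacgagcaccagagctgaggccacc
Thrb, second start, chr14:17981394-17981643, plus strand: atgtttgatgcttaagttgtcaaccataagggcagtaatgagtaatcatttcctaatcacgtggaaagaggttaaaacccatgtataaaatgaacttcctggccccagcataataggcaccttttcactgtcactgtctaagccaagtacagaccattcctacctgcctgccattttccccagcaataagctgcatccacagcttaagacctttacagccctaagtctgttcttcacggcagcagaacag
Klf9, chr19:23140976-23141225, plus strand: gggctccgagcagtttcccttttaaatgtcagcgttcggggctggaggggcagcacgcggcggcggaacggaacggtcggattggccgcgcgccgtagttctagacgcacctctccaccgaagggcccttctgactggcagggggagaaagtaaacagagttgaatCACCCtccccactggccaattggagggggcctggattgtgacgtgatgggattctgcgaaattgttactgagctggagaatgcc

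The core site AGGTCA was present in 1 of these windows, that of the first Thrb start, at 184 bases before the start, and in 14.0% of 32851 promoter windows of the same length. A direct repeat of this site with 4 bases of any kind between the copies, on either strand, was in none of the windows of the 5 genes and in 5 of all windows. CACCC stood at 115 and 21 bases before the Dio1 start, at 84 bases before the Klf9 start, and at 144 and 89 bases before the Slc16a10 start, the last of these on the opposite strand. CACCC was in 52.0% of all windows. The GC box GGGCGG was matched 3 times before Slc16a10 and 3 times before the first Thrb start, where 2 matches overlap, against 32.7% of all windows with at least 1 match. The second Thrb window held none of these motifs.

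Values are the authors' log ratios of kidney over reference, converted to log2, so 0 means the level of the reference RNA and 1 means 2-fold above it. Levels of different genes cannot be set against each other, because the reference holds an unknown amount of each RNA. The direction was taken as kidney over reference from the dyes and because 12 proximal tubule markers had array medians between 5.20 and 5.59 at E19. Per array, 10.8% to 23.1% of probes were an exact 0, taken as not measured, and 16194 to 17983 genes had a value. Arrays correlated with the others of their stage at a mean r of 0.886 to 0.960, lowest for E19 replicate 2. The labels do not say whether arrays of a stage came from separate animals, so p-values measure the spread between arrays, which may be technical. In whole-organ RNA, fewer cells of a type and less RNA per cell cannot be told apart.

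Of the 7 genes, 4 differed between stages by limma's moderated F test with Benjamini-Hochberg adjustment over all genes: Dio1 (adjusted p = 4.88e-16), Slc16a10 (1.02e-11), Klf9 (1.28e-08) and Thrb (7.20e-05). The share among all genes tested was 43.2%, 7051 of 16335. Dio3 (adjusted p = 0.243), Thra (0.620) and Hr (0.718) did not pass. With array weights 12242 of 16335 genes passed this test. Dio3 (adjusted p = 0.00590) and Hr (0.0278) were then among them, and Thra was not (0.0971). Over the whole span, P35 minus E19, the same 4 genes rose, 0 fell and 3 did not pass, where 40.0% of 17119 genes passed 21.0% upward and 19.0% downward. The median change of the 7 genes was 1.79 on the log2 scale, against 0.06 over all genes. The values by array are in the plot of log2 ratios by stage.

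**Figure D1:**
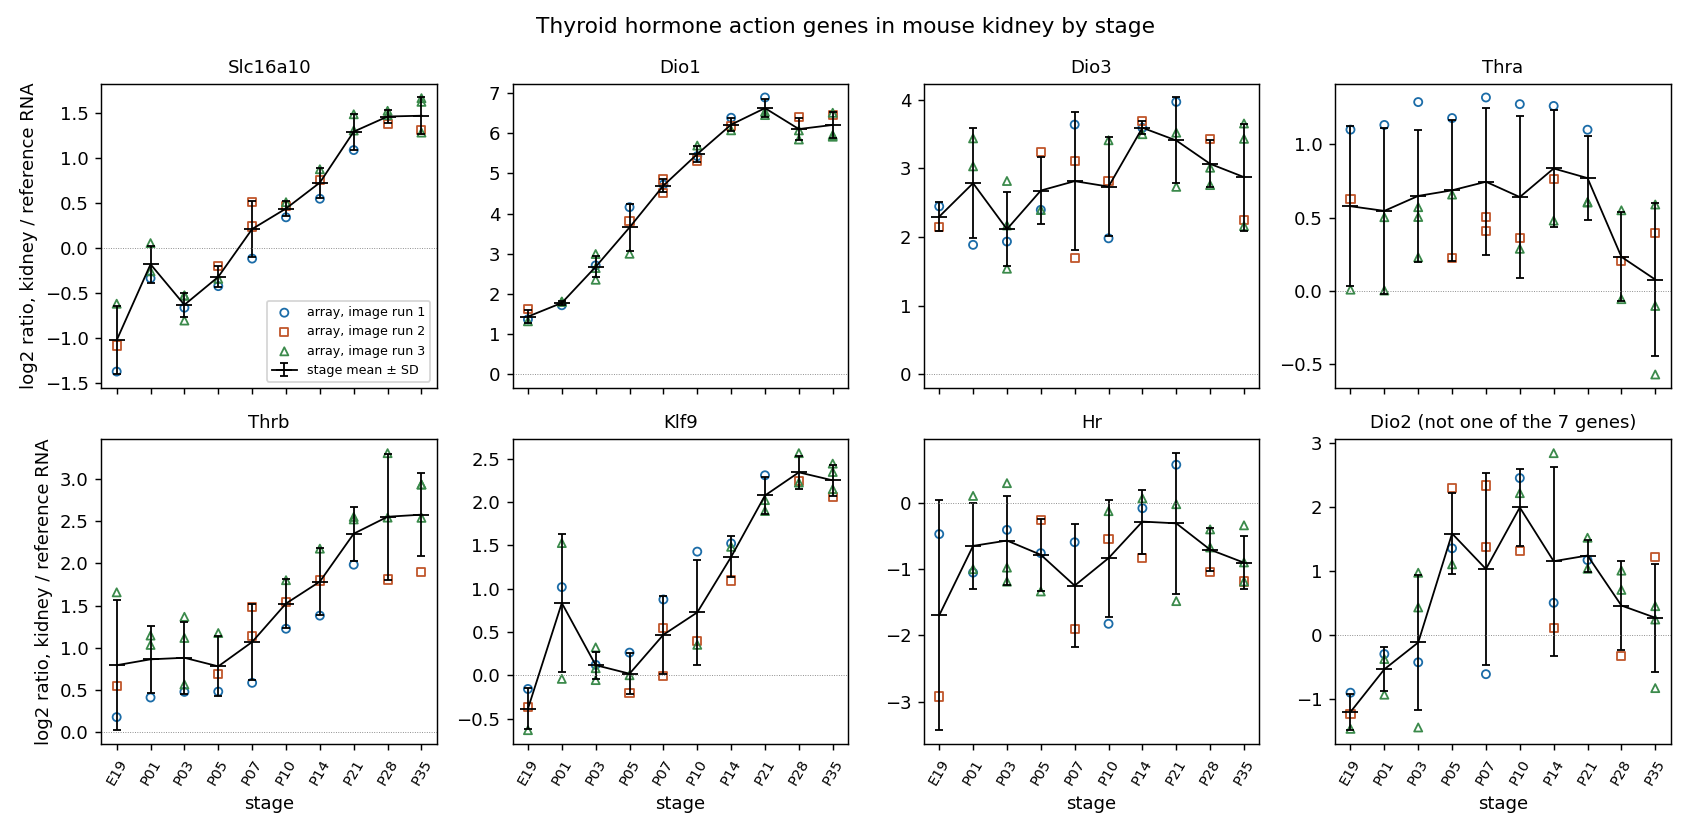
Log2 ratio of kidney over reference RNA (vertical axis, a separate scale for each gene) at the 10 stages (horizontal axis) for the 7 genes and for Dio2, which is not one of them. Open symbols are single arrays, marked by image run, and the line joins stage means ± SD (n = 3 arrays, 4 at P03 and P35, and 2 for Dio3 at E19 and for Hr at E19 and P07); Dio1 climbed from E19 to P14 and lay between 6.10 and 6.62 afterwards, Slc16a10, Thrb and Klf9 were highest at P28 or P35, and Thra was highest in image run 1 at each of the 8 stages with an array there.

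Slc16a10 encodes a membrane transporter of aromatic amino acids that also carries thyroid hormone. Its log2 ratios were 1.30, 1.62, 1.66 and 1.28 on the P35 arrays, against -1.37, -0.62 and -1.08 on the E19 arrays. The stages did not overlap, as held for 43.1% of all genes, and the stage means were 1.46 ± 0.20 (SD, n = 4) and -1.02 ± 0.38 (SD, n = 3). The change was 2.49 ± 0.18 (SE), 5.60-fold, with an adjusted p of 3.81e-11. Within image run 2, with 1 array per stage, the difference was 2.38, and within run 3 it was 2.14. Image runs are groups of arrays whose image numbers in the labels follow each other, a possible batch. The 1 E19 array of run 3 is E19 replicate 2, which had the lowest mean r, 0.886. Each run 3 comparison with E19 in this report rests on that array.

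Stage means of Slc16a10 stood at -0.18 at P01, -0.63 at P03, -0.32 at P05, 0.21 at P07, 0.44 at P10, 0.72 at P14, 1.29 at P21, 1.46 at P28 and 1.46 at P35. From the highest, P35, P28 and P21 were neighbours that did not differ beyond their SD, and neither did P10 from P07, nor P01 from P05. P01 minus E19 was 0.84 ± 0.19 (SE, adjusted p = 0.0201), in a comparison added after seeing the data where 1.37% of genes passed, and the arrays of these stages did not overlap, as held for 15.8%. This call ended without E19 replicate 1 (0.67), without E19 replicate 3 (0.81) and without P01 replicate 3 (0.72). It also ended with only these 2 stages in the fit (adjusted p = 0.492). In that fit 0 of 16985 genes passed, so the loss cannot single out this gene. Image run 3 holds 1 E19 array, which leaves the spread of that stage to the other stages; there the change was 0.51 (adjusted p = 0.382).

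Of the 4 Slc16a10 probes, 3 passed over the whole span and 2 at the first postnatal stage. The probe numbered 12824 rose by 2.53 (adjusted p = 3.75e-08), probe 33264 by 3.87 (2.82e-08) and probe 44856 by 2.57 (1.22e-09) over P35 minus E19, while probe 38165 changed by 0.98 without passing (0.0631). Over P01 minus E19, probes 12824 and 33264 rose, by 1.69 (adjusted p = 0.00218) and 2.31 (0.00439). Probe 44856 was at -0.43 at P01, against -0.39 at E19, and probe 38165 was at -0.17, against 0.43, and neither passed (adjusted p = 0.977 and 0.713). The E19 mean of probe 38165 had a wide spread, 0.43 ± 1.33 (SD, n = 3). Its arrays read -0.44, 1.96 and -0.24, so the high mean rested on E19 replicate 2. That mean enters both changes given for this probe. The early change of the gene mean came from probes 12824 and 33264, and the difference between probes was not tested. Among single probes, 1.23% passed over P01 minus E19 and 32.8% over P35 minus E19.

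**Figure D2:**
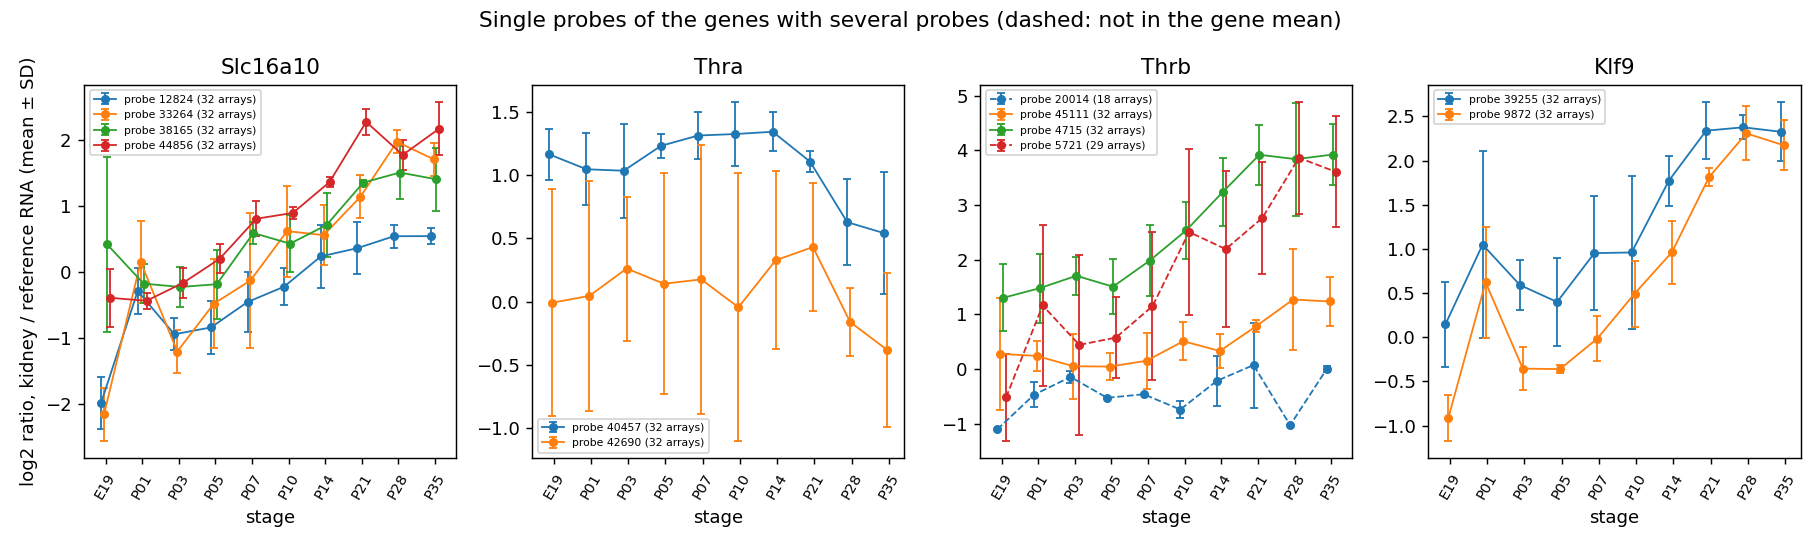
Stage means ± SD of single probes (vertical axis, log2 ratio of kidney over reference RNA; horizontal axis, stage) for the 4 genes with several probes, each labelled by its number and the arrays that measured it. Dashed lines are Thrb probes measured on 29 and 18 arrays, which were left out of the gene mean; the Slc16a10 probes 12824 and 33264 lie above their E19 level at P01, the other 2 do not.

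Dio1 encodes type 1 deiodinase, which both activates and clears thyroid hormone, and of the 7 genes it had the largest change over P35 minus E19. The P35 arrays read 6.45, 5.91, 6.51 and 5.95 on the log2 scale, against 1.37, 1.32 and 1.62 on the E19 arrays. The 2 stages were far apart relative to their spread, at 6.20 ± 0.32 (SD, n = 4) and 1.44 ± 0.16 (SD, n = 3). The change was 4.77 ± 0.22 (SE), 27.2-fold, with an adjusted p of 2.29e-14, and within image runs 2 and 3 it was 4.82 and 4.80.

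The course of Dio1 was a climb over the first 2 postnatal weeks. Stage means were 1.78 at P01, 2.68 at P03, 3.66 at P05, 4.70 at P07, 5.48 at P10, 6.21 at P14, 6.62 at P21, 6.10 at P28 and 6.20 at P35. Each step from E19 to P14 was larger than the SD of its neighbours, whereas P14, P35 and P28 lay within their SD of each other and P21, the highest, lay above P14 by more than the SD. P07 minus E19 was 3.26 ± 0.24 (SE), 9.56-fold (adjusted p = 1.73e-09), where 7.19% of genes passed. P14 minus P07 was 1.52 ± 0.24, 2.86-fold (adjusted p = 0.00151), and Dio1 was the 1 gene of the 7 to pass there, among 0.988% of all genes. That call was lost when only the arrays of these 2 stages entered the fit (adjusted p = 0.163). In that fit 0 of 16804 genes passed, so the loss cannot single out Dio1. P35 minus P14 was -0.01 ± 0.22 (adjusted p = 0.990).

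Between P01 and P03, a comparison also added after seeing the data, Dio1 was at 3.00, 2.71, 2.36 and 2.65 on the P03 arrays, against 1.72, 1.80 and 1.81 on the P01 arrays. These values did not overlap, as held for 8.45% of genes, but the change of 0.90 ± 0.22 (SE) did not pass (adjusted p = 0.136). With image run as a block it was 0.92 and passed (adjusted p = 0.0223). In the fit without the block, 0 of the 7 genes and 0.0177% of all genes passed over this step by limma. The unadjusted p was under 0.05 for 3 of the 7, Dio1 upward (0.90) and Klf9 (-0.72) and Slc16a10 (-0.45) downward. The share of all genes at that unadjusted threshold is not given here. After quantile normalization 1477 of 16954 genes were under it.

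Dio3 encodes type 3 deiodinase, which inactivates thyroid hormone and is known for its abundance in fetal tissues. Its log2 ratios were 2.25, 3.65, 3.43 and 2.16 on the P35 arrays, against 2.45 and 2.15 on the 2 E19 arrays that measured it. The stages overlapped, and the change of 0.57 ± 0.53 (SE) did not pass (adjusted p = 0.415, 95% confidence interval -0.51 to 1.66). The highest stage mean was 3.59 ± 0.09 (SD, n = 3) at P14 and the lowest 2.11 ± 0.53 (SD, n = 4) at P03, and each stage lay within its neighbour's SD in the order of means.

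Dio2, the third deiodinase, which makes triiodothyronine and is known from brain, pituitary and brown fat, is in the list of hormone metabolism genes and was named after its values were seen. Its stage means were -1.20 at E19, -0.53 at P01, -0.11 at P03, 1.59 at P05, 1.04 at P07, 2.00 at P10, 1.16 at P14, 1.25 at P21, 0.47 at P28 and 0.27 at P35. It differed between stages by the F test (adjusted p = 0.00549). P07 minus E19 was 2.24 ± 0.69 (SE, adjusted p = 0.0461) and P35 minus E19 was 1.47 ± 0.64 (adjusted p = 0.0704). The P07 call ended on leaving out any 1 of 20 of the 32 arrays, with the change between 1.58 without P07 replicate 1 and 2.39 without E19 replicate 1 in these fits. The P07 arrays read 2.34, 1.37 and -0.61, against -0.90, -1.46 and -1.24 at E19.

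Markers of fat tissue were also higher after birth. The median of 5 adipose genes measured on all arrays lay between 5.20 and 6.11 on the P07 arrays, against 0.24 to 0.50 on the E19 arrays. Ucp1, the uncoupling protein that defines brown fat and was also named after its values were seen, was at 5.89, 6.37 and 6.81 on the P07 arrays, against 1.38, 1.85 and 2.15 on the E19 arrays. The adipose medians did not follow Dio2 at every stage. Their median over arrays was still 5.69 at P28 and 5.36 at P35, where the Dio2 means were 0.47 and 0.27. With 3 or 4 arrays per stage, the same array will be lowest in both at some stages by chance. The array with the lowest adipose median was also the lowest in Dio2 at 5 of the 10 stages, for example at P14, with 0.24 and 0.12. At P07, by contrast, the array with the lowest Dio2 value, -0.61, had the highest adipose median, 6.11. The P05 and P10 arrays with the lowest adipose medians, 4.05 and 3.62, had the highest Dio2 values of their stages, 2.30 and 2.46. The part of fat tissue in the Dio2 values was not tested.

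Thrb encodes the receptor beta, which is known to mediate much of the hormone's action in liver and kidney. Log2 ratios of Thrb were 1.90, 2.94, 2.94 and 2.54 on the P35 arrays, against 0.17, 1.66 and 0.54 on the E19 arrays. The stages did not overlap, at means of 2.58 ± 0.49 (SD, n = 4) and 0.79 ± 0.77 (SD, n = 3). The change was 1.79 ± 0.36 (SE), 3.46-fold, with an adjusted p of 0.000261, and within image runs 2 and 3 it was 1.36 and 1.15. With image run as a block it was 1.46 (adjusted p = 9.62e-06). Image run moved with Thrb: the run 1 array was the lowest of its stage at all 8 stages that had one, and P35 had none. For Slc16a10 it was the lowest at 7 of the 8 stages, and for Klf9 the highest at 6.

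Thrb was at 0.86 at P01, 0.88 at P03, 0.78 at P05, 1.07 at P07, 1.52 at P10, 1.78 at P14, 2.35 at P21, 2.56 at P28 and 2.58 at P35. The 4 lowest means, P05, E19, P01 and P03, did not differ beyond their SD, nor did the 3 highest, P35, P28 and P21. None of the shorter comparisons of Thrb passed: P07 minus E19 was 0.28 (adjusted p = 0.782), P14 minus P07 0.72 (0.596) and P35 minus P14 0.80 (0.158).

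Of the 3 Thrb probes that could be tested over P35 minus E19, 2 rose. Probe 4715 stood at 3.92 ± 0.55 (SD, n = 4) at P35, against 1.30 ± 0.61 (n = 3) at E19, a rise of 2.62 (adjusted p = 5.32e-05). Probe 45111 stood at 1.24 ± 0.45, against 0.28 ± 1.02, a change of 0.96 that did not pass (adjusted p = 0.0765). Probe 5721, outside the gene mean because 29 arrays measured it, rose by 4.13 (adjusted p = 0.00231), and probe 20014, measured on 18 arrays, could not be tested over this span.

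Thra encodes the receptor alpha. Its log2 ratios were 0.39, -0.10, 0.59 and -0.57 on the P35 arrays, against 1.10, 0.01 and 0.63 on the E19 arrays. The stages overlapped, and the change of -0.50 ± 0.35 (SE) did not pass (adjusted p = 0.274, 95% confidence interval -1.22 to 0.22). Image run moved with Thra: the run 1 array was the highest of its stage at all 8 stages that had one, with values between 1.10 and 1.32. P35 had no run 1 array. Within run 2 the P35 minus E19 difference was -0.23, within run 3 it was -0.04, and with image run as a block it was -0.22 (adjusted p = 0.441). Of its 2 probes, 40457 fell by 0.63 (adjusted p = 0.0433) and 42690 changed by -0.38 (0.661).

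Klf9 encodes a Krüppel-like transcription factor and is an early target of thyroid hormone in several tissues, also induced by glucocorticoids. Log2 ratios of Klf9 were 2.06, 2.35, 2.44 and 2.15 on the P35 arrays, against -0.16, -0.63 and -0.37 on the E19 arrays. The stages did not overlap, at 2.25 ± 0.18 (SD, n = 4) and -0.38 ± 0.24 (SD, n = 3). The change was 2.64 ± 0.28 (SE), 6.21-fold, with an adjusted p of 3.84e-08, and within image runs 2 and 3 it was 2.43 and 2.94. Both probes rose, probe 9872 by 3.09 (adjusted p = 7.13e-10) and probe 39255 by 2.18 (0.000135).

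Klf9 had an early high value at P01. Its arrays read 1.02, -0.04 and 1.53 there, against -0.16, -0.63 and -0.37 at E19, and the change of 1.22 ± 0.30 (SE) passed (adjusted p = 0.0395). The 3 P01 arrays had a wide spread, 0.84 ± 0.80 (SD, n = 3), and the call ended without E19 replicate 1 (1.33), E19 replicate 2 (1.10), E19 replicate 3 (1.23), P01 replicate 1 (1.13) or P01 replicate 3 (0.87). It also ended with array weights (0.62, adjusted p = 0.0572) and with only these 2 stages in the fit (0.498), where 0 of 16985 genes passed. In image run 3, with its 1 E19 array, the change was 1.38 (adjusted p = 0.249). Stage means then were 0.12 at P03, 0.02 at P05, 0.47 at P07, 0.73 at P10, 1.37 at P14, 2.08 at P21, 2.34 at P28 and 2.25 at P35. P03 minus P01 was -0.72 ± 0.28 and did not pass (adjusted p = 0.473). Over P01 minus E19, probe 9872 rose by 1.54 (adjusted p = 0.00306), while probe 39255 changed by 0.90 without passing (0.445). The difference between these probes was not tested, and 1.23% of single probes passed over that step.

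After the second postnatal week Klf9 and Slc16a10 rose further. For Klf9, P35 minus P14 was 0.88 ± 0.28 (SE, adjusted p = 0.0374), and its P14 arrays read 1.48, 1.09 and 1.52. That call ended without P14 replicate 1 (0.94), P14 replicate 2 (0.75), P14 replicate 3 (0.96), P35 replicate 2 (0.85), P35 replicate 3 (0.82) or P35 replicate 4 (0.92). For Slc16a10 it was 0.74 ± 0.18 (adjusted p = 0.00480), and its P14 arrays read 0.87, 0.75 and 0.54. In image run 3, which holds 1 P14 array, the changes were of similar size, 0.83 for Klf9 (adjusted p = 0.406) and 0.65 for Slc16a10 (0.191). The Slc16a10 call also ended with the most variable probe (1.15, adjusted p = 0.0586) and with only these 2 stages in the fit (0.0645). Over this span 13.7% of all genes passed. Of the Klf9 probes, 9872 rose by 1.21 (adjusted p = 0.00230), while 39255 changed by 0.55 without passing (0.480). Of the Slc16a10 probes, 44856 rose by 0.81 (adjusted p = 0.0166). Probes 33264 (1.15, adjusted p = 0.0710), 38165 (0.69, 0.339) and 12824 (0.31, 0.559) did not pass. P07 minus E19 was 1.23 ± 0.19 for Slc16a10 (adjusted p = 0.000114) and 0.85 ± 0.30 for Klf9, which did not pass (0.0935) but did with image run as a block (0.0227). With only these 2 stages in the fit the Slc16a10 change did not pass (0.110).

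**Figure D3:**
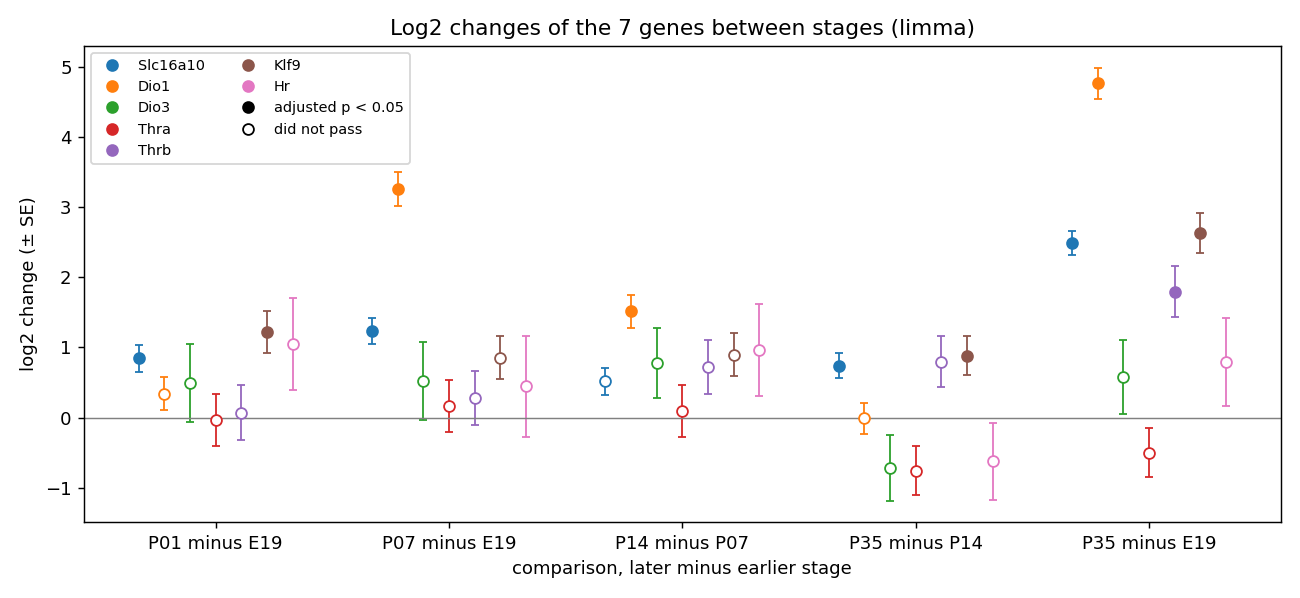
Log2 change ± SE from limma (vertical axis) of the 7 genes in 5 comparisons of a later with an earlier stage (horizontal axis); filled points had an adjusted p under 0.05. Dio1, Slc16a10, Klf9 and Thrb passed over P35 minus E19, and Thrb passed in no other comparison shown. Dio1 also passed in the 2 comparisons that end at P07 and P14, at 3.26 and 1.52. Klf9 and Slc16a10 also passed over P01 minus E19 and over P35 minus P14, and Slc16a10 over P07 minus E19, at 1.23. The comparisons share arrays.

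Hr encodes a nuclear corepressor that binds thyroid hormone receptors and is known as a direct target of the hormone in rodent brain. It was measured on 30 arrays and lay below the reference on most of them. Its log2 ratios were -1.19, -1.19, -0.90 and -0.34 on the P35 arrays, against -0.47 and -2.92 on the 2 E19 arrays that measured it. The stages overlapped, and the change of 0.79 ± 0.62 (SE) did not pass (adjusted p = 0.336, 95% confidence interval -0.49 to 2.08). Its sign turned on 1 array: without E19 replicate 3 the change was -0.43, and without E19 replicate 1 it was 2.02 (adjusted p = 0.0309). Each of these fits leaves 1 E19 array, fewer than the 2 asked for elsewhere, with the spread taken from the other stages.

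The stage profiles of the 4 genes that differed between stages resembled each other to different degrees. Klf9, Slc16a10 and Thrb had stage means that correlated at r = 0.956 to 0.966 over the 10 stages, while Dio1 correlated with Thrb at 0.859, with Klf9 at 0.802 and with Slc16a10 at 0.915. These are descriptions of 10 means that share arrays and the reference RNA. Among 6813 genes measured on all arrays and past the F test, those with a stage profile most like Dio1 were Pla2g5, Lctl and Glod5 (r = 0.993, 0.993 and 0.992). For Klf9 they were Cflar, Mdh1 and Selenbp2 (0.993, 0.991 and 0.991), for Slc16a10 Chdh, Il15ra and Mcur1 (0.995, 0.995 and 0.994), and for Thrb Met, Cat and Cyld (0.995, 0.992 and 0.992).

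Other genes of the pathway were taken from lists, and those with a value are in the plot of changes by gene list. Among 12 tested genes of hormone transport, 4 rose over P35 minus E19 and 0 fell, with a median of 0.97. Of all genes, 21.0% rose and 19.0% fell. With 1 array left out, 2 to 5 of the transport genes rose and 0 to 1 fell, where 5869 to 6934 of all genes passed. Slc7a8, an amino acid transporter that also carries thyroid hormone, rose by 2.00 (adjusted p = 1.01e-05), and 3 others were Slco4c1 (1.52), Slc3a2 (1.29) and Slco2b1 (0.64). Slco4c1 had fallen over P07 minus E19, by 1.98 (adjusted p = 0.0358), and rose over P14 minus P07 by 3.17 (0.00486). The P07 call of Slco4c1 ended without E19 replicate 1 (-1.24) and without P07 replicate 1 (-1.10). Both calls of Slco4c1 ended with only the 2 stages in the fit (adjusted p = 0.357 and 0.318), where 219 and 0 of all genes passed. Of 9 tested genes of hormone metabolism 4 rose and 0 fell, against the same 21.0% and 19.0% of all genes. In the fits with 1 array left out, 2 to 5 of the metabolism genes rose and 0 fell. Iyd, which recovers iodide from iodotyrosines, rose by 2.88 ± 0.80 (adjusted p = 0.00583, 2 arrays at E19). Sulfotransferases Sult1d1 (1.40) and Sult1a1 (1.35) and the aminotransferase Kyat1 (1.22) were the other 3.

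Deiodinases need selenocysteine, and of 8 tested genes of selenoprotein synthesis and supply 3 rose and 0 fell, where 21.0% of all genes rose and 19.0% fell. Selenop, the plasma carrier of selenium, rose by 3.69 ± 0.36 (SE, adjusted p = 8.78e-09), to 4.89 at P35, against 1.20 at E19. Secisbp2 (1.21) and Sepsecs (1.14), which serve selenocysteine insertion, were the other 2. With image run as a block 6 of these genes rose and 1 fell, and the share of all genes in that fit is not given here. The block raised the number of all genes passed in other comparisons, for example to 2255, against 1213, over P07 minus E19. Of the 3 retinoid X receptors, the partners of Thra and Thrb, Rxra rose by 0.95 (adjusted p = 0.000642), and the other 2 did not pass.

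Receptor cofactors moved in both directions and by little, where 21.0% of all genes rose and 19.0% fell. Of 6 tested corepressor genes Tbl1xr1 rose by 0.57, while Tbl1x fell by 0.70 and Hdac3 fell by 0.43. Of 8 coactivators Ppargc1a, known as a driver of mitochondrial genes, rose by 0.94 (adjusted p = 0.000412) and Ncoa2 by 0.40, while Crebbp fell by 0.85 and Ncoa6 fell by 0.83.

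Of 16 tested genes listed as responsive to thyroid hormone, 10 rose over P35 minus E19 and 0 fell, with a median of 1.23. The median over all genes was 0.06, and 21.0% of all genes rose and 19.0% fell. With 1 array left out, 7 to 10 genes of the list rose, fewest without E19 replicate 2, and 0 fell. In these fits 5869 to 6934 of all genes passed. Me1, malic enzyme, stood at 2.44 at P35, against -1.48 at E19, a rise of 3.92 (adjusted p = 1.13e-09). Tef, a circadian transcription factor, rose by 2.62, Slc9a3, the proximal sodium-hydrogen exchanger, by 2.21, Cpt1a, of fatty acid oxidation, by 2.08, and G6pc, the last enzyme of glucose output, by 1.86. Cpt1a and G6pc had risen over P01 minus E19 already, by 1.16 (adjusted p = 0.00242) and 1.51 (0.0102). The G6pc call over P01 minus E19 ended without E19 replicate 3 (1.31) and without P01 replicate 3 (1.54). With only these 2 stages in the fit both genes lost their call (adjusted p = 0.316 for Cpt1a and 0.305 for G6pc). In that fit 0 of 16985 genes passed. With the most variable probe Cpt1a did not pass either (1.33, adjusted p = 0.261). In image run 3, with its 1 E19 array, the changes were 1.19 for Cpt1a (adjusted p = 0.100) and 0.95 for G6pc (0.242). Many of these genes also respond to other hormones, and the list was chosen with earlier results of these data known.

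The Klf family other than Klf9 moved in both directions. Of 15 tested genes 4 rose and 4 fell, with a median of -0.41, where 21.0% of all genes rose and 19.0% fell. Klf15, which is known to respond to glucocorticoids, rose by 1.95 (adjusted p = 3.14e-05), Klf1, a factor of red cell development, by 1.66, and Klf12 by 1.20. Klf5 fell by 1.19 and Klf10 by 1.03. The size of the Klf9 change, 2.64, was above all of these.

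Some of the calls of the genes named above from these lists ended over P35 minus E19 when 1 array was left out. List genes that were not named are not covered here. Without E19 replicate 1 they were Iyd (1.92, with 1 E19 array left), Slco2b1 (0.63), Sult1d1 (1.27), Secisbp2 (1.00), Hdac3 (-0.34), Ncoa6 (-0.64), Ncoa2 (0.27) and Klf12 (1.03). Without E19 replicate 2 they were Slco4c1 (1.11), Slc3a2 (1.03), Ncoa6 (-0.89) and Slc9a3 (1.54). Without E19 replicate 3 they were Slco4c1 (1.20), Slco2b1 (0.60), Sult1d1 (1.37), Secisbp2 (1.26), Tbl1x (-0.52), Hdac3 (-0.37), Ncoa2 (0.34) and Klf12 (1.10). Without 1 of the 4 P35 arrays, Slco4c1, Slc3a2, Slco2b1, Sult1d1, Secisbp2, Hdac3, Ncoa6, Ncoa2 and Klf12 lost their call at least once. Each gene named here for a left-out array kept the sign of its change in these fits.

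Other settings ended calls of the same named genes. After quantile normalization Slco4c1 (1.15), Slco2b1 (0.27), Sult1d1 (0.61), Slc9a3 (1.46) and Klf12 (0.91) did not pass. Taking the most variable probe of each gene, Slc3a2 (1.17), Secisbp2 (1.51), Hdac3 (-0.43), Crebbp (-1.07), Ncoa6 (-1.08), Ncoa2 (0.73) and Klf12 (1.23) lost their call. With the mean of all probes this held for Slc9a3 (1.42) and Klf12 (0.64), with exact 0 kept for Klf12 (0.59), and with array medians subtracted for Ncoa2 (0.39). With only the P35 and E19 arrays in the fit it held for Slco4c1, Sult1d1, Tbl1x, Tbl1xr1, Hdac3 and Ncoa2. In image run 3, with its 1 E19 array, 12 of the named list genes did not pass, among them Ppargc1a (0.59), Crebbp (-0.79), Tbl1xr1 (0.49), Sult1a1 (1.30), Klf1 (1.35) and Klf10 (-0.85).

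**Figure D4:**
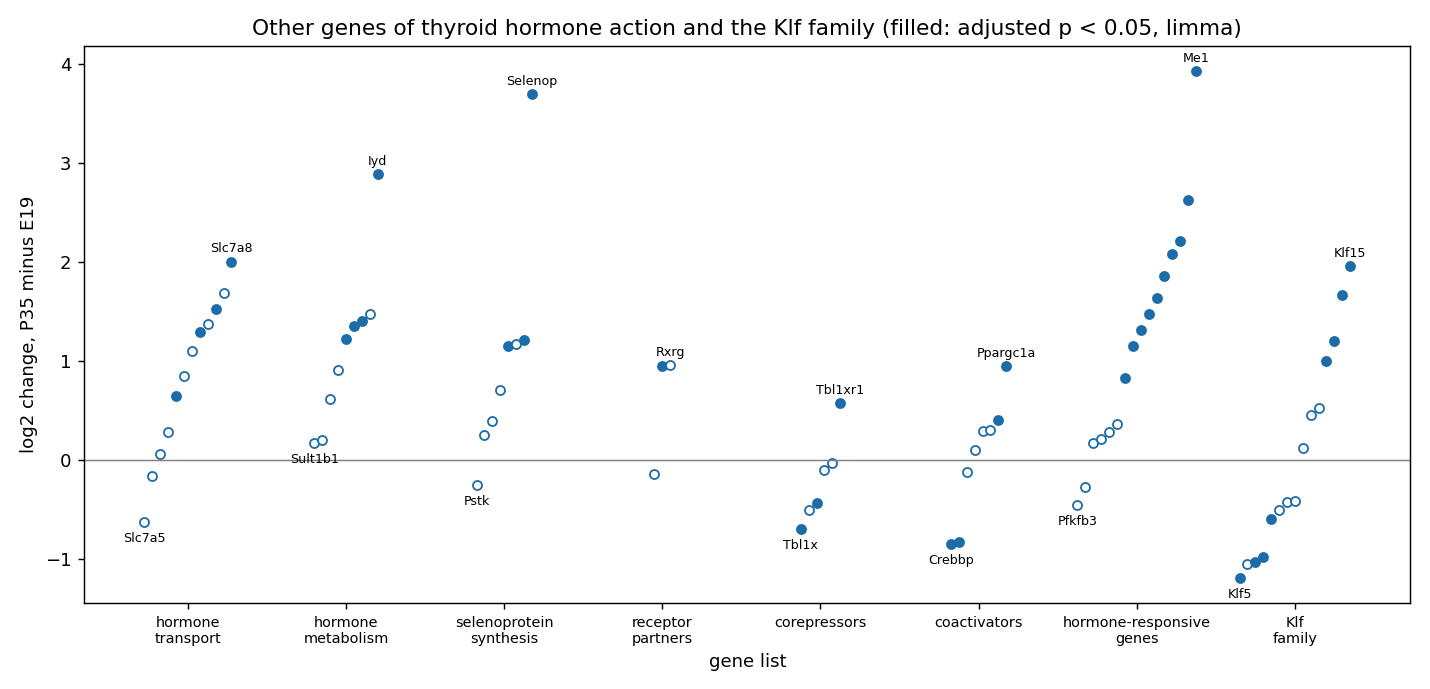
Log2 change, P35 minus E19 (vertical axis), of single genes in 8 lists (horizontal axis); each point is a gene, filled where the adjusted p was under 0.05, and the ends of the larger lists are named. In 5 lists filled points lie only above 0, and in the corepressors, the coactivators and the Klf family they lie on both sides.

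Markers of kidney cell types changed over the same stages. The array medians of 12 proximal tubule markers lay between 5.50 and 6.31 at P35, against 5.20 to 5.59 at E19, and overlapped. The medians of 8 nephron progenitor markers lay between -0.83 and -0.12 at P35, against 2.05 to 2.49 at E19, without overlap. Other lists also lay apart at the 2 stages. Stroma markers were lower, at -1.67 to -1.36 at P35, against 0.14 to 0.61 at E19, and so were liver markers, at 1.65 to 2.35, against 4.00 to 4.69. Adipose markers were higher, at 1.98 to 5.65 at P35, against 0.24 to 0.50 at E19, as were leukocyte markers, at -1.24 to -0.94, against -2.25 to -1.92. Markers of the thick ascending limb were at 5.55 to 6.22 at P35, against 4.67 to 5.14 at E19, and those of the distal tubule and collecting duct at 4.91 to 5.20, against 4.27 to 4.68. The endothelial, podocyte, erythroid and adrenal medians overlapped. Those of 5 thyroid gland genes, 3 of them measured on all arrays, were between -1.45 and 0.42 at P35 and -0.36 to 0.41 at E19. The part of cell composition in the changes of the 7 genes was not tested.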

How the data were processed

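The authors deposited a table of log ratios from 32 two-colour oligonucleotide arrays. Spot intensities were not used. The sources used here do not state how spots were extracted or normalized. The deposited values were read as log10 ratios, since read as log2 the highest, 4, would cap folds at 16. They were multiplied by 3.32193 to give log2. An exact 0 was taken as not measured. Of 45220 probes, 33653 carried 1 gene symbol in the platform annotation, 56 several, which were left out, and 11511 were unlisted. A gene is the mean of its probes measured on all arrays or, with none, the probe measured on most. limma 3.58.1 in R 4.3.3 fitted 1 mean per stage to all 32 arrays, with Benjamini-Hochberg adjustment over all genes with at least 2 arrays in both stages and a threshold of 0.05. The fit was tested on simulated data. Stages came from the sample titles. Named genes were the 7 genes, up to 5 genes per list with the largest change among those past the test over P35 minus E19, and the 3 genes with the most similar stage profile. The 7 genes and the lists were chosen with earlier results of these data known. P01 minus E19, P03 minus P01, single probes and a log2 reading were added after seeing the data. The number of arrays limits the precision.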

Additional observations from a re-analysis of the deposited data

How the results depend on the processing

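No paired analysis was possible because replicate numbers only name arrays. Over the alternatives other than leave-one-out, the 7 genes kept direction and side of the threshold in 521 comparisons, lost the call in 11, gained one in 12 and turned sign in 12. Counts of genes past limma's test were 7051 (any stage), 1213 (P07 minus E19), 166 (P14 minus P07), 2333 (P35 minus P14), 233 (P01 minus E19) and 3 (P03 minus P01).

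With image run as a block they were 2255 for P07 minus E19, 449 for P14 minus P07, 653 for P01 minus E19 and 232 for P03 minus P01, where 1 of the 7 genes passed. In image run 3 alone, which has 1 array at E19 and at P14 and no P07 array and so gives no P07 or any-stage value, they were 503 for P35 minus P14 (0 of the 7, 1 at an unadjusted p under 0.05), 60 for P01 minus E19 (0 of the 7, 1 unadjusted) and 0 for P03 minus P01 (1583 unadjusted). With array weights, between 0.343 and 6.01, all 7 genes passed over P35 minus E19, Thra downward (-0.61) and the others upward. The share of all genes over that span in this setting is not given here. Counts with array weights were 12242 of 16335 for any stage, 1929 for P07 minus E19 and 555 for P14 minus P07. They were also 5857 for P35 minus P14 (4 of the 7), 2793 for P01 minus E19 and 129 for P03 minus P01 (1 of the 7). With only the stages compared they were 219 for P07 minus E19 (1 of the 7), 0 for P14 minus P07 (1229 unadjusted, 0 of the 7, 2 unadjusted), 1149 for P35 minus P14 (1 of the 7), 0 for P01 minus E19 (1400 unadjusted, 0 of the 7, 2 unadjusted) and 0 for P03 minus P01 (1055 unadjusted). For P03 minus P01 they were 19 with exact 0 kept, 14 with the most variable probe, which left 1 of the 7 genes past P35 minus P14, 23 after quantile normalization, 1 with array medians subtracted and 15 with at least 1 array per stage. The cause was not tested.

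Leaving out 1 array gave 54 to 167 genes for P14 minus P07, 1450 to 2518 for P35 minus P14 (1 to 2 of the 7), 45 to 239 for P01 minus E19 (0 to 2 of the 7) and 0 to 65 for P03 minus P01. Signs turned for the following changes, none of which passed with all arrays. The Thra ranges were -0.12 to 0.43 for P07 minus E19, -0.12 to 0.38 for P14 minus P07, -0.33 to 0.24 for P01 minus E19 and -0.17 to 0.40 for P03 minus P01. The Thrb ranges were -0.033 to 0.71 for P07 minus E19, -0.24 to 0.50 for P01 minus E19 and -0.21 to 0.16 for P03 minus P01. The Hr ranges were -0.43 to 2.02 for P35 minus E19, -0.78 to 1.67 for P07 minus E19, -0.18 to 2.27 for P01 minus E19 and -0.21 to 0.46 for P03 minus P01. Dio1 ranged from -0.11 to 0.090 for P35 minus P14 and Dio2 from -0.72 to 0.78 for P14 minus P07.

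Under the block Dio1 was 0.092 for P35 minus P14, Thra 0.0095 and Thrb -0.14 for P01 minus E19, and Thrb -0.052 for P03 minus P01. In run 3 alone Dio1 was 0.053 for P35 minus P14, Thra 0.24 and Thrb -0.57 for P01 minus E19, and Thrb -0.074 and Hr -0.17 for P03 minus P01. With array weights Dio2 was -0.89 for P14 minus P07 and Thrb -0.020 for P03 minus P01. Thrb was -0.17 for P03 minus P01 with exact 0 kept, and Thra 0.055 for P01 minus E19 with the most variable probe.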
